A study of Mus musculus with 9 samples.

Results

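Livers of mice given dmPGE2 1 h before an acetaminophen (APAP) overdose were compared with livers of mice given the overdose alone, by sequencing their small RNAs. The comparison used 6 of the 9 libraries of the study and every microRNA (miRNA) row of its count table, 933 rows once rows that counted the same reads had been joined. All mice were wild-type C57 BL6 animals aged 8 weeks, and the tissue was taken 6 h after the overdose. The 3 APAP libraries came from mice injected intraperitoneally with 500 mg/kg APAP. The 3 dmPGE2+APAP libraries came from mice that had the same dose of APAP and, 1 h earlier, dmPGE2 at 300 µg/kg, which is prostaglandin E2 with added methyl groups that slow its breakdown. The 3 Control libraries came from mice given saline, and they entered the fit to estimate the spread between libraries and to give a reference level. Every dmPGE2 mouse also received APAP, no vehicle is named for dmPGE2 in the labels, and mice with dmPGE2 alone were not analysed here. The labels do not state that each library came from a separate mouse, so the p-values measure only how far these libraries spread, and that spread may be technical.

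A miRNA guides Argonaute proteins to messenger RNAs that pair with its seed, the bases near its 5′ end, and lowers the translation and stability of those messages. Liver tissue holds the miRNAs of hepatocytes, in which miR-122 dominates, together with those of endothelium, stellate cells, bile duct epithelium, resident and recruited leukocytes, and blood. APAP is turned by cytochrome P450 enzymes into a reactive metabolite that depletes glutathione and kills hepatocytes around the central vein, and blood and leukocytes gather in the injured zone. Prostaglandin E2 acts through 4 receptors, some of which raise cyclic AMP (cAMP), and dmPGE2 activates the same receptors.

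The sequences below show miRNAs described in the comparison, 5′ to 3′, with the seed (bases 2 to 8) in capitals. The first 3 come from 1 locus and are red blood cell miRNAs, and miR-223-3p is abundant in neutrophils. In this first group, which lay lower after dmPGE2, only miR-451a passed the threshold.
miR-451a: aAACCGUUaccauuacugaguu
miR-144-5p: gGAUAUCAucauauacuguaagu
miR-144-3p: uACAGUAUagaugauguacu
miR-223-3p: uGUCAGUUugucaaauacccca
The next group lay on the other side of the comparison, none of it past the threshold.
miR-3470b: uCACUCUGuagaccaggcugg
miR-6481: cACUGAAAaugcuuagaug
miR-690: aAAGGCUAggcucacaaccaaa
miR-127-3p: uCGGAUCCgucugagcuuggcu
miR-6538: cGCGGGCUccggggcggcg
The last group shows the shared seeds of the miR-17 and miR-15 families, of which the members printed here all lay below 0.
miR-106b-5p: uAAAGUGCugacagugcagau
miR-17-5p: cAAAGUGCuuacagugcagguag
miR-20a-5p: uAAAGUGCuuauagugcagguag
miR-93-5p: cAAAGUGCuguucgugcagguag
miR-15b-5p: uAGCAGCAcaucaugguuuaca
miR-15a-5p: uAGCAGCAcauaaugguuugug
miR-16-5p: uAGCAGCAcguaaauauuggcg
The sequences are those of RefSeq on GRCm38.p6. On that build miR-451a lies at chr11:78073186-78073207 and miR-144-5p at chr11:78073010-78073032, both on the plus strand, so miR-451a and miR-144 are neighbours. The miRNA miR-223-3p lies at chrX:96242884-96242905 on the plus strand, miR-3470b at chr16:44013885-44013905 on the plus strand, and miR-106b-5p at chr5:138165787-138165807 on the minus strand.

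Some rows of the table named different miRNAs but counted the same reads, and these were read as 1 miRNA. An example is miR-24-3p with 69233 reads over the 9 libraries and miR-3074-5p with 69142, whose sequences are reverse complements over the 20 bases in capitals.
miR-24-3p: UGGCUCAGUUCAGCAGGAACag
miR-3074-5p: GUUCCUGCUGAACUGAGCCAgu
In all, 13 pairs of rows were joined, under the row with more reads or, in pairs with equal reads, the first by name. The arms miR-486a-5p and miR-486a-3p counted nearly the same reads without meeting the criterion, and are described below as 1 measurement with 2 names.

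The APAP libraries held 5301225, 6112413 and 2849713 reads, and the dmPGE2+APAP libraries 5475065, 826123 and 3818658. The second dmPGE2+APAP library was therefore the shallowest, and in it 3 reads correspond to 3.63 CPM (counts scaled to a common library size, here before TMM scaling), against 0.491 to 1.05 in the other 5. It also stood apart in content: of 216 miRNAs that averaged 10 CPM or more in the 6 libraries, 6 were over 2-fold above all 8 other libraries in it on the log2(CPM + 1) scale (miR-205-5p, miR-200c-3p, miR-9-5p, miR-802-3p, miR-10b-5p and miR-676-3p) and 1 was over 2-fold below them (miR-142a-3p). In each of the other libraries, 0 to 2 miRNAs were over 2-fold outside the rest on that scale. The hepatocyte marker miR-122-5p took 23.2% to 27.4% of the reads in each of the 6 libraries, and the neuronal miR-124-3p was listed at 0 in all but 1 library.

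At 6 h, 1 miRNA passed the threshold between the dmPGE2+APAP and the APAP livers, which does not show the others to be unchanged. The red blood cell miRNA miR-451a was 2.70-fold lower (95% confidence interval 1.89 to 3.86). It was the only 1 of 344 tested miRNAs to pass (0.291% lower and 0.0% higher, quasi-likelihood test of edgeR, p adjusted by Benjamini-Hochberg, threshold 0.05). At an unadjusted p under 0.05, 12 miRNAs lay lower (3.49%) and 9 higher (2.62%). DESeq2 called 4 lower (1.16%) and 3 higher (0.872%), and limma-voom called miR-451a alone (0.291%). Both miR-486a rows, which count nearly the same reads, are among the 12 and among the 4.

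The remaining miRNAs gathered close to 0 on the log2 scale of the difference. Of the 344, 175 lay above 0 (50.9%) and 169 below (49.1%), with a median of 0.01, and 275 lay within 0.5 of it. The 3 libraries of a group overlapped with the other 3 for most miRNAs: in 25 every dmPGE2+APAP library was lower than every APAP library (7.27%), and in 22 every one was higher (6.4%). The precision differed with abundance. The median standard error was 0.32 over all tested miRNAs and 0.25 over the 216 with at least 10 CPM, and the 95% interval lay within 1 of 0 for 192 of all 344 and for 167 of those 216. For the rest the interval reached past 2-fold in at least 1 direction.

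**Figure D1:**
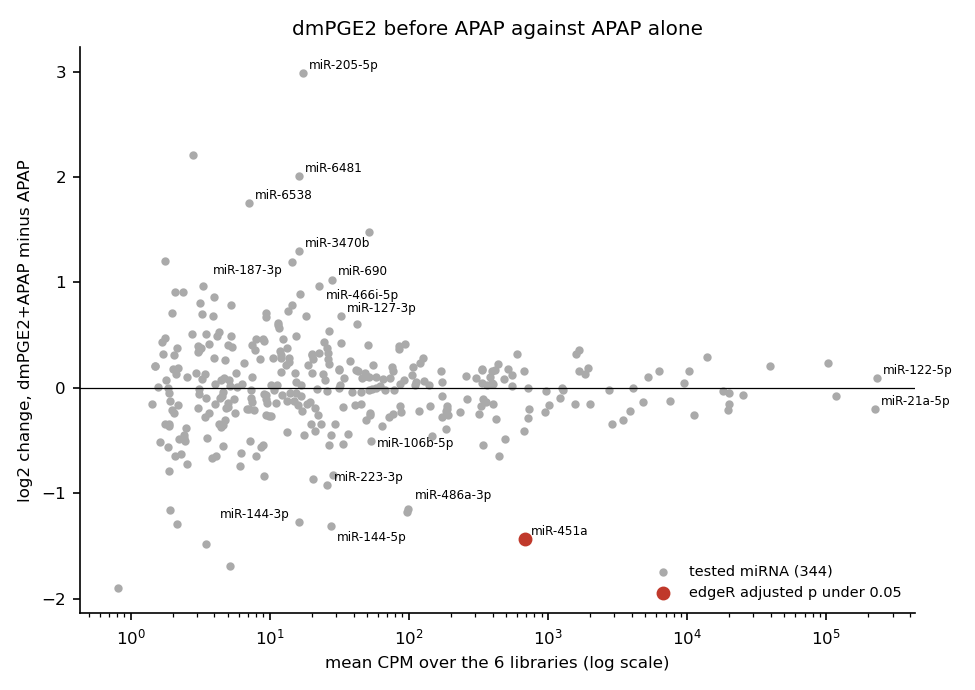
Log2 difference of each of the 344 tested miRNAs (vertical axis, dmPGE2+APAP minus APAP) against its mean level over the 6 libraries (horizontal axis, CPM on a log scale), with the miRNA whose edgeR adjusted p was under 0.05 in red. The red point, miR-451a at -1.43, stands apart from miRNAs of its own abundance, and most wide differences belong to miRNAs under 100 CPM.

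All 4 tested red blood cell miRNAs, in 5 rows of the table, lay lower after dmPGE2, and 1 of them passed. The miRNA miR-451a, which is processed by Argonaute 2 in place of Dicer and accumulates in maturing red cells, measured 1453, 802 and 742 CPM in the APAP libraries and 361, 351 and 396 CPM in the dmPGE2+APAP libraries. All APAP libraries were higher than all dmPGE2+APAP libraries, and the first APAP library was the highest of the 6. The group means were 999 ± 394 CPM (SD, n = 3) and 369.5 ± 23.7 CPM (SD, n = 3), a log2 difference of -1.43 (SE 0.24, edgeR adjusted p = 0.00862). In the Control libraries miR-451a measured 508, 545 and 475 CPM, between the other groups. APAP minus Control, which shares the APAP libraries with the comparison, was 0.97 (edgeR adjusted p = 0.0541). The difference dmPGE2+APAP minus Control, which shares the dmPGE2+APAP libraries with it, was -0.46 (edgeR adjusted p = 0.498), and neither passed. In bulk tissue, fewer cells of a type and less RNA per cell cannot be told apart.

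The other red blood cell miRNAs lay lower by a similar amount but did not pass. The arm miR-144-5p, encoded beside miR-451a in a locus driven by the erythroid factor GATA1, measured 59.4, 31.3 and 27.4 CPM after APAP and 17.3, 12.9 and 16.2 CPM after dmPGE2 and APAP. The groups did not overlap, and the log2 difference was -1.31 (SE 0.36, edgeR adjusted p = 0.124). Its partner miR-144-3p measured 26.2, 15.1 and 25.2 CPM against 5.08, 17.2 and 9.03 CPM. Here the groups overlapped, since the second dmPGE2+APAP library was above the second APAP library, and the log2 difference was -1.27 (SE 0.58, edgeR adjusted p = 0.725). For miR-486a-5p, a miRNA that red cell precursors express from within the ankyrin 1 gene, the APAP libraries held 194, 85.7 and 124 CPM and the dmPGE2+APAP libraries 53.3, 72.0 and 56.0 CPM. Again the groups did not overlap, and the log2 difference was -1.17 (SE 0.29, edgeR adjusted p = 0.107). The row for miR-486a-3p, with nearly the same reads, gave -1.15 (edgeR adjusted p = 0.107). DESeq2 called miR-144-5p and both miR-486a rows.

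With miR-486a counted once, 3 of the 4 red blood cell miRNAs had groups that did not overlap, against 7.27% of all tested miRNAs. The miR-144 arms come from the same hairpin, with miR-451a encoded beside it, so the 4 are not independent. Their median was -1.29 (-1.27 over the 5 rows), and over all 344 it was 0.01. Summed over the 5 rows, the APAP libraries held 1928, 1021 and 1045 CPM and the dmPGE2+APAP libraries 491, 530 and 534 CPM, beside 655, 740 and 585 CPM in the Control libraries. The dmPGE2+APAP sums, in which miR-486a enters under both names and miR-451a is the largest part, thus differed little among themselves. The spread of the sums lay mostly in the APAP group. For miR-144-3p it did not: the SD was 6.14 CPM in the APAP and 6.18 CPM in the dmPGE2+APAP libraries. Of the red blood cell members, miR-451a and the miR-144 arms were among the miRNAs poorest in G and C, with 36.4% for miR-451a and 30.4% for miR-144-5p. This property moved with the comparison as described further down. No sequence was available here for the miR-486a rows, so their composition was not measured.

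**Figure D2:**
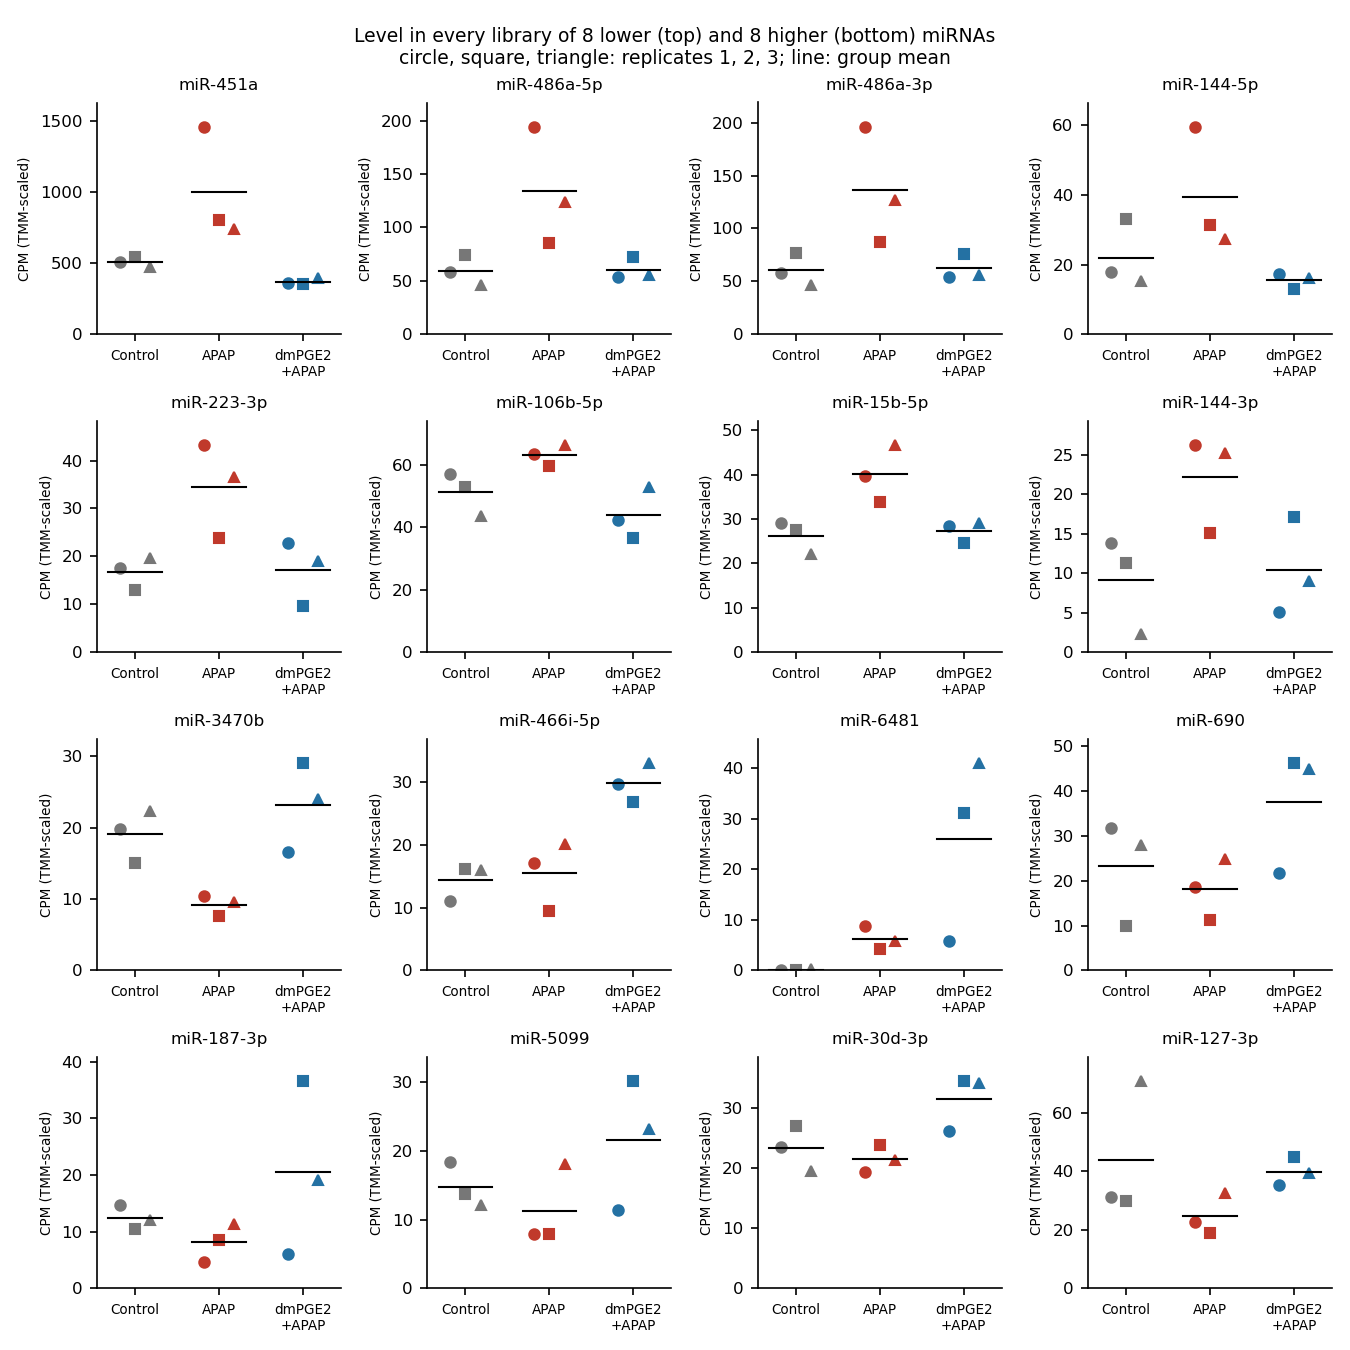
CPM in each of the 9 libraries (vertical axes, TMM-scaled) for the 8 lower and 8 higher miRNAs named by the rule, with Control in grey, APAP in red, dmPGE2+APAP in blue and a line at each group mean. Both miR-486a rows are among the 8 lower, so the same measurement is drawn under both names. The upper rows show miR-451a at 361 to 396 CPM in all dmPGE2+APAP libraries below 742 to 1453 CPM in the APAP libraries, and in the lower rows miR-6481 is seen to rest on 2 of the 3 dmPGE2+APAP libraries.

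The call on miR-451a depended on individual libraries. Its log2 difference stayed between -1.56 and -1.01 in 25 alternative analyses, and it passed in 20 of them. Without the first APAP library, the highest, it was -1.03 (edgeR adjusted p = 0.0682), and without the shallow second dmPGE2+APAP library -1.35 (edgeR adjusted p = 0.0552). It also missed the threshold when only the 6 libraries were fitted, at -1.44 (edgeR adjusted p = 0.0790). With every library thinned to 826123 reads it was -1.41 and passed (edgeR adjusted p = 0.0104).

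**Figure D3:**
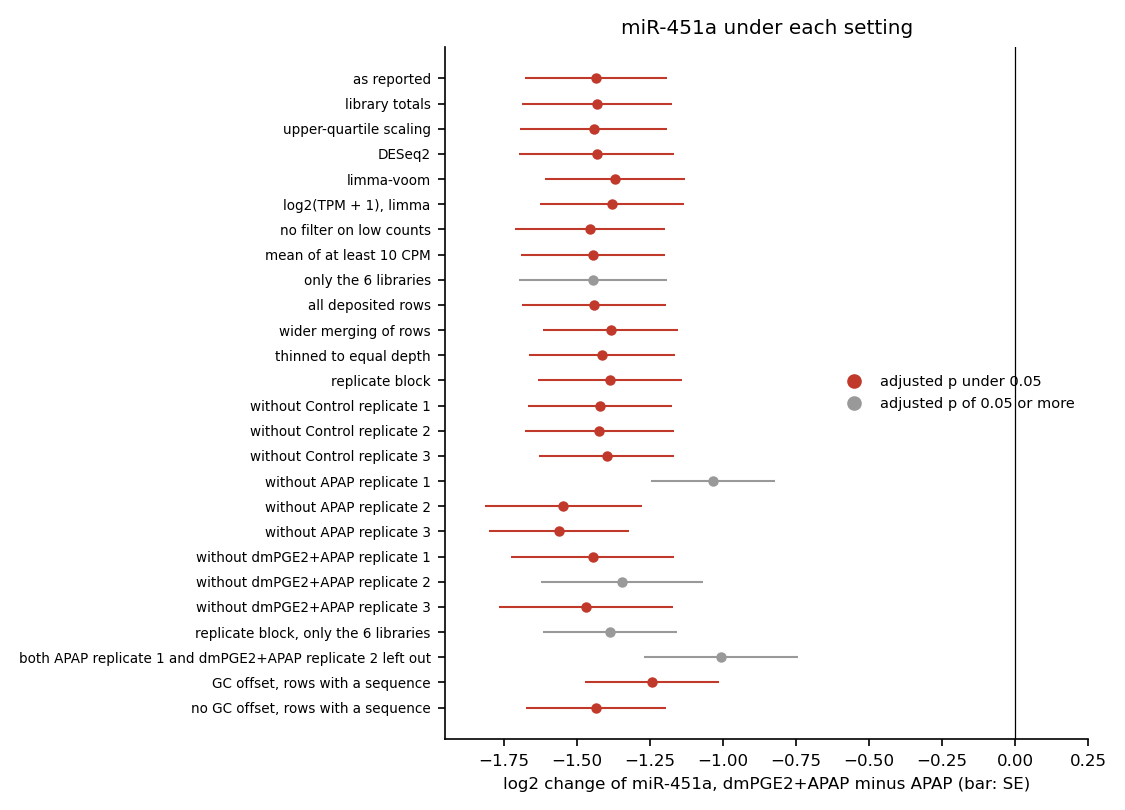
Log2 difference of miR-451a (horizontal axis, dmPGE2+APAP minus APAP, bars give the SE) in the reported analysis and its 25 alternatives (vertical axis), in red where the adjusted p was under 0.05. Every estimate lies between -1.56 and -1.01, and the 5 grey points are the analyses in which the call was lost.

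All 4 tested myeloid rows lay lower, with no call. The miRNA miR-223-3p, which restrains the maturation and activity of neutrophils, measured 43.2, 23.9 and 36.7 CPM after APAP and 22.8, 9.67 and 19.1 CPM after dmPGE2 and APAP. The groups did not overlap, but the highest dmPGE2+APAP library came within about 1 CPM of the lowest APAP library. The log2 difference was -0.93 (SE 0.32, edgeR adjusted p = 0.374), beside 1.04 for APAP minus Control (edgeR adjusted p = 0.125), which shares the APAP libraries. The other arm, miR-223-5p, was at -0.65. Of the 4 myeloid rows, 3 had groups that did not overlap, against 7.27% of all tested miRNAs, and the median was -0.75. These 3 were the arms miR-223-3p and miR-223-5p of 1 hairpin, and miR-142a-3p at -0.86 (SE 0.42, edgeR adjusted p = 0.725). In the shallow second dmPGE2+APAP library they rested on 9, 5 and 4 reads. The fourth, miR-142a-5p, is made in all blood cells and is by far the most abundant of the list. It measured 262, 164 and 323 CPM against 144, 280 and 218 CPM, the groups overlapped, and its log2 difference was -0.23 (SE 0.31, edgeR adjusted p = 0.921). Without the second dmPGE2+APAP library the median of the list was -0.54. The lymphoid list had only miR-150-5p, a miRNA of mature B and T cells, and miR-342-3p to test, 1 on each side of 0 with a median of 0.15, or 0.51 without the first and 0.04 without the second APAP library.

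No miRNA passed as higher after dmPGE2. The nearest was miR-3470b, at 10.3, 7.57 and 9.62 CPM in the APAP libraries and 16.6, 29.0 and 24.0 CPM in the dmPGE2+APAP libraries. The groups did not overlap, and the log2 difference was 1.30 (SE 0.30, edgeR adjusted p = 0.107, DESeq2 adjusted p = 0.00955). Its Control level was 15.1 to 22.4 CPM, so that the APAP libraries were the lowest of all 9, and APAP minus Control was -1.06 (edgeR adjusted p = 0.0963). The miRNA miR-466i-5p, of a family expanded in rodents, measured 17.1, 9.46 and 20.1 CPM against 29.8, 26.9 and 33.0 CPM. Those groups did not overlap either, and all dmPGE2+APAP libraries were also above the 11.1 to 16.1 CPM of the Control libraries. The log2 difference was 0.96 (SE 0.31, edgeR adjusted p = 0.274).

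The widest difference among miRNAs with at least 10 CPM in this direction, apart from miR-205-5p below, was that of miR-6481. It measured 8.74, 4.30 and 5.71 CPM after APAP and 5.78, 31.2 and 41.0 CPM after dmPGE2 and APAP. The first dmPGE2+APAP library lay within the APAP range and the other 2 far above it, and in the Control libraries the row was at 0, 0 and 0.346 CPM. The log2 difference of 2.01 (SE 0.62) had an edgeR adjusted p of 0.282, and DESeq2 called it. DESeq2 also called miR-6538, whose mean was under 10 CPM, with 2.14, 4.82 and 2.10 CPM against 6.66, 15.04 and 11.9 CPM (log2 difference 1.75, SE 0.46, edgeR adjusted p = 0.110). Its groups did not overlap, and with 94.7% G and C its composition was far from that of miR-451a and miR-144. Over 23 alternative analyses its log2 difference ranged from 0.90 to 2.31, and it passed in 5 of them.

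The remaining higher miRNAs rested on small differences or on few libraries. The imprinted miR-127-3p, encoded in the Dlk1-Dio3 locus on the maternal chromosome, measured 22.7, 19.1 and 32.8 CPM against 35.4, 45.1 and 39.5 CPM (log2 difference 0.68, SE 0.34). Its groups did not overlap, but its other arm, miR-127-5p, lay at -0.34. For miR-30d-3p the libraries held 19.3, 23.7 and 21.3 CPM against 26.1, 34.4 and 34.0 CPM (0.54, SE 0.25), also without overlap, and its far more abundant partner miR-30d-5p was at -0.12. In miR-690, miR-187-3p and miR-5099 the first dmPGE2+APAP library lay within the APAP range and the other 2 above it, with log2 differences of 1.03, 1.20 and 0.89. Each of these 5 had an edgeR adjusted p of 0.725. Without the first dmPGE2+APAP library, 4 miRNAs passed as higher, namely miR-187-3p, miR-3470b, miR-6481 and miR-6538.

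The miR-17-92 cluster and its paralogs, which promote cell cycle entry and are targets of MYC, lay slightly lower as a list. All 10 tested members were below 0, with a median of -0.30, 3 of them without overlap between the groups (7.27% of all tested miRNAs) and none called. The highest ranked was miR-106b-5p, shown above with the seed AAAGUGC, at 63.5, 59.5 and 66.1 CPM after APAP and 42.2, 36.5 and 52.9 CPM after dmPGE2 and APAP. All 3 APAP libraries were higher, and the log2 difference was -0.51 (SE 0.22, edgeR adjusted p = 0.725). The other members with that seed, miR-17-5p, miR-20a-5p and miR-93-5p, lay at -0.45, -0.25 and -0.29. Without the second dmPGE2+APAP library they lay at -0.29, -0.10 and -0.13, and miR-106b-5p at -0.36. Its other arm, miR-106b-3p, lay at -0.30.

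The miR-15 family, which shares the seed AGCAGCA and represses cyclins, had 5 of 6 tested members below 0 with a median of -0.27. Its member miR-15b-5p measured 39.8, 33.9 and 46.6 CPM against 28.4, 24.7 and 29.1 CPM (log2 difference -0.53, SE 0.24, edgeR adjusted p = 0.725). Those groups did not overlap, and the dmPGE2+APAP libraries lay close to the 22.2 to 29.1 CPM of the Control libraries. For miR-15a-5p the difference was -0.54 and for the abundant miR-16-5p -0.20. Without the second dmPGE2+APAP library miR-15a-5p was at -0.34 and miR-16-5p at -0.03, both nearer to 0.

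Hepatocyte miRNAs showed no difference that passed, and their intervals were narrow. The share of reads in miR-122-5p, the miRNA that dominates hepatocytes and supports their lipid metabolism, was 24.2%, 23.4% and 23.2% in the APAP libraries and 27.4%, 25.3% and 23.5% in the dmPGE2+APAP libraries. The groups overlapped, the means were 23.6% ± 0.542 and 25.4% ± 1.95 (SD, n = 3 each), and the permutation test (exact, two-sided) gave p = 0.2, where the smallest possible was 0.1. Its log2 difference was 0.10 with a 95% interval of -0.37 to 0.57. For miR-192-5p, another hepatocyte and intestinal miRNA that p53 induces, it was 0.24 with an interval of -0.19 to 0.67. The list of liver-enriched miRNAs had 6 members above 0 and 5 below, with a median of 0.04. The other abundant miRNAs lay in the same narrow range: miR-21a-5p, which rises in many injured tissues, at -0.20 (SE 0.20), miR-148a-3p at -0.08, miR-26a-5p at -0.07, miR-22-3p at -0.05 and miR-101b-3p at -0.03. The 10 most abundant miRNAs took 86.4% of the reads in each group.

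Stromal and endothelial miRNAs were also near 0. The endothelial pair from miR-126a, which lies within Egfl7 and maintains vessel integrity, had a median of 0.08. Of 9 stellate and mesenchymal miRNAs 6 lay above 0, with a median of 0.12 (0.03 without the second dmPGE2+APAP library), and miR-143-3p, a smooth muscle and fibroblast miRNA, was at 0.20 (SE 0.24).

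Epithelial miRNAs were all above 0, but this rested on 1 library. The 9 tested members, headed by the miR-200 family that keeps cells epithelial by repressing Zeb1 and Zeb2, had a median of 0.18 and none was called. For miR-205-5p, a miRNA of stratified epithelium, the APAP libraries held 2.85, 3.27 and 3.91 CPM and the dmPGE2+APAP libraries 4.73, 85.9 and 3.35 CPM. For miR-200c-3p they held 25.7, 21.3 and 31.3 CPM against 27.0, 186 and 20.9 CPM. In both, only the second dmPGE2+APAP library was high. The log2 differences were 2.99 (SE 1.35) and 1.48, and without that library 0.36 and -0.07. The bile duct members miR-200a-3p and miR-200b-3p went from 0.16 and 0.18 to -0.01 and -0.06.

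Pathways linked to prostaglandin and injury signalling showed no call. Of the miRNAs induced through cAMP and CREB, the route of some prostaglandin E2 receptors, miR-132-5p lay at 0.38 and miR-132-3p at -0.26, and the 3 tested rows had a median of 0.13. The libraries held 11.2, 9.29 and 12.6 CPM of miR-132-5p after APAP against 11.4, 24.7 and 10.6 CPM, so only the shallow second dmPGE2+APAP library was high. Without it miR-132-5p was at 0.05, miR-132-3p at -0.01 and the median at 0.05. Without the second APAP library the median was -0.06, and without the first or the third 0.30. Of 7 inflammation and NF-kB miRNAs 4 were below 0, with a median of -0.20. Without the second dmPGE2+APAP library that median was -0.005, without the first APAP library -0.03 and without the third 0.01. The lowest was miR-21a-3p, the passenger arm of miR-21a, at 35.9, 28.4 and 46.3 CPM after APAP against 22.1, 19.3 and 20.1 CPM. Its groups did not overlap, and its log2 difference was -0.83 (SE 0.43, edgeR adjusted p = 0.758), while its Control libraries held 2.30 to 13.9 CPM. The p53 responsive miR-34a-5p and miR-34c-5p had a median of -0.09, and miR-210-3p, the main target of hypoxia-inducible factor among miRNAs, was at -0.74 (SE 0.37, edgeR adjusted p = 0.725), or -1.34 without the first and -0.42 without the third dmPGE2+APAP library.

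Other families gave small shifts with no call. The let-7 family, which restrains proliferation, had 7 of 9 tested members below 0 with a median of -0.21, which was -0.07 without the second dmPGE2+APAP library, -0.05 without the first APAP library and -0.03 with the offset for G and C described further down. The miR-23, miR-27 and miR-24 clusters had 7 of 9 above 0 with a median of 0.25, or 0.11 without the second dmPGE2+APAP library. In the Dlk1-Dio3 cluster 12 of 18 were above 0, with a median of 0.15, and 3 were higher without overlap between the groups, against 6.4% of all tested miRNAs. Single libraries decided that list, with a median of -0.01 (8 above 0 and 10 below) without the first APAP library and 0.51 (17 above 0 and 1 below) without the third. The miR-29 and miR-30 families had medians of -0.02 and 0.01, metabolic regulators such as miR-378a-3p 0.05, and the miRNAs of liver regeneration -0.13. The muscle and neuronal lists, included to check for other tissues, had 4 tested members each and medians of -0.43 and 0.38. The muscle median was -0.02 without the third APAP library, and the neuronal median was 0.07 without the second dmPGE2+APAP library. The rodent miR-466, miR-467 and miR-669 families had 1 of 5 tested members above 0, with differences from -1.48 to 0.96 and a median of -0.64, or -1.08 without the first and -0.41 without the second dmPGE2+APAP library. With a filter at a mean of 10 CPM only 2 members were tested, 1 on each side of 0, with a median of 0.27. After thinning to equal depth it was 0.26, also over 2 members.

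**Figure D4:**
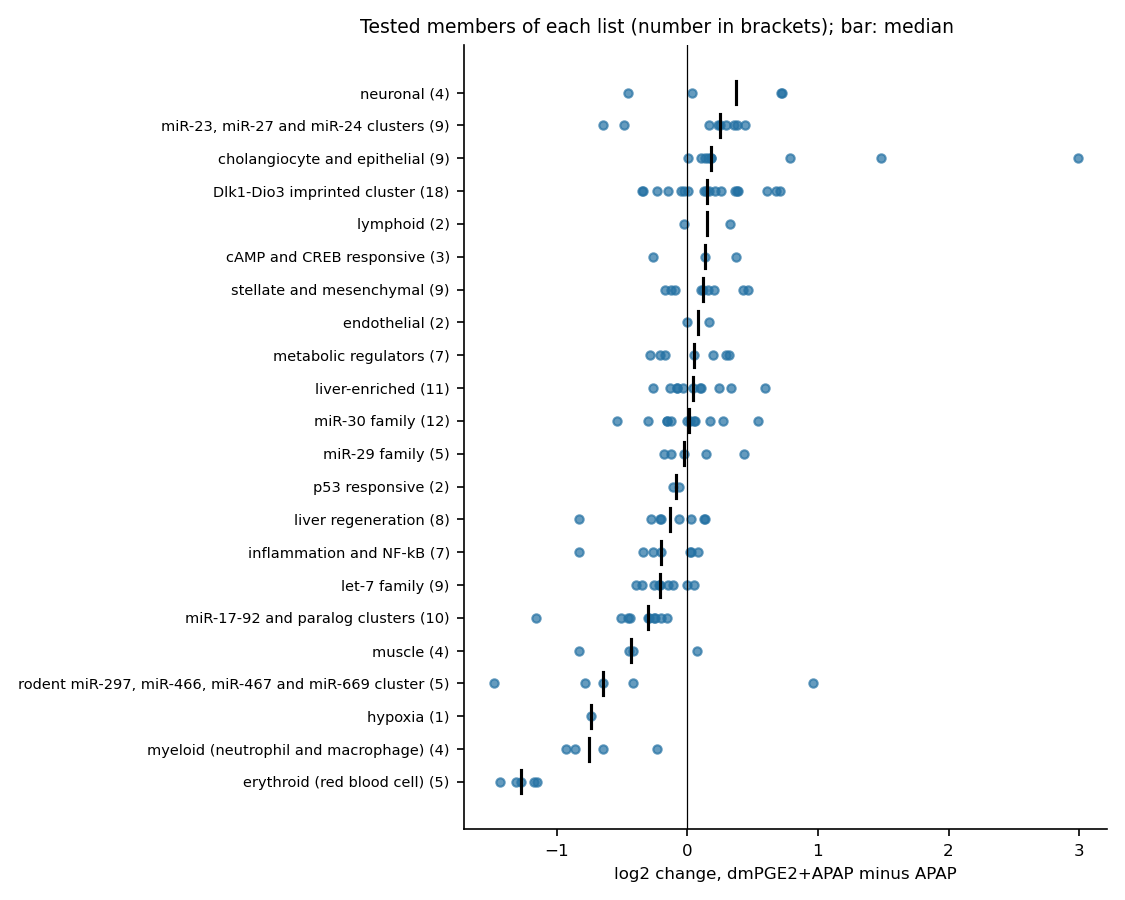
Log2 difference of each tested member (points, horizontal axis, dmPGE2+APAP minus APAP) of the 22 lists (vertical axis), with a bar at each list's median. The red blood cell list, at the bottom, has the lowest median at -1.27 over its 5 rows, and the epithelial list has most members near 0.18 with miR-205-5p at 2.99.

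Base composition moved with the comparison. Among the 292 tested miRNAs with a sequence in RefSeq, those with under 40% G and C had a median log2 difference of -0.19 (19 above 0 and 39 below), those from 40% to 50% of -0.02 (50 above and 63 below), and those with 50% or more of 0.14 (80 above and 41 below). The Spearman coefficient across these 292 miRNAs, which share libraries and are not independent, was 0.34. It stayed between 0.27 and 0.39 when each dmPGE2+APAP library was left out in turn. Within single libraries, G and C content was set against the log2 deviation from the mean of the 9 libraries. The Spearman coefficients were -0.200, -0.305 and -0.054 in the APAP libraries and 0.179, 0.261 and 0.063 in the dmPGE2+APAP libraries. The Control libraries gave -0.109, -0.105 and 0.064, and the third library of each other group lay within that range. With an offset that removed the relation, miR-451a lay at -1.24 and still passed (edgeR adjusted p = 0.0214). The 3 red blood cell rows with a sequence had a median of -1.02 with the offset and -1.31 without it. The myeloid list kept 3 of 4 members below 0, with a median of -0.62 against -0.75 without the offset.

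**Figure D5:**
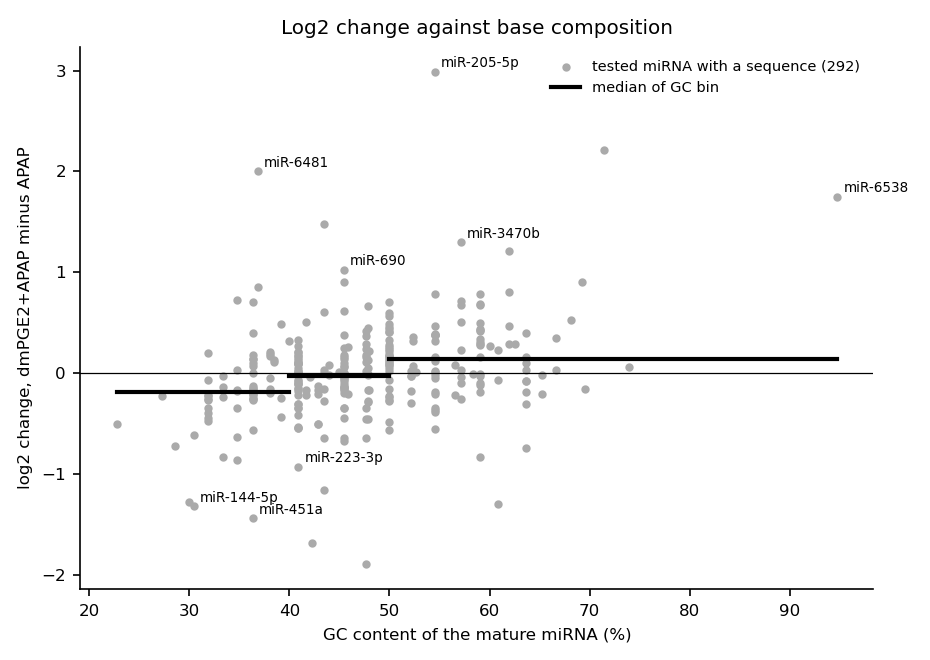
Log2 difference (vertical axis, dmPGE2+APAP minus APAP) of 292 tested miRNAs against the G and C content of the mature sequence (horizontal axis, percent), with bars at the medians of 3 composition ranges. The medians go from -0.19 to 0.14, with miR-451a and miR-144-5p at the low end of composition and miR-6538 at the high end.

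The 589 rows left out of the test carried little information. Of these, 89 had no read in the 6 libraries, and the others had at most 43 reads over all 6, with a median of 2. The tested rows held 99.986% of the reads. The number of miRNAs with a read was 564 to 623 in the APAP libraries and 439 to 616 in the dmPGE2+APAP libraries, and 411 to 445 against 421 to 439 after thinning to equal depth (exact two-sided permutation test, p = 0.7).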

How the data were processed

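The 9 small RNA libraries of mouse liver were analysed. The deposited table gives, per the file headers, whole-number read counts and TPM for 946 mature miRNA rows. The submitters' processing notes name Bowtie and mm10. For the version of the aligner, the miRNA annotation and the strand setting, nothing is given in the sources used here. The TPM values deposited by the authors equal the counts scaled by the table's total, and were used only in an alternative. The columns with the prefix BC match no label and were taken as Control, the only group left. The table held 0 columns that were not used.

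Rows were joined where, in each library, their counts lay within 5% or 2 reads of each other, with a log2 correlation over 0.99 and 100 reads or more in all. They were kept under the row with most reads (the first by name where equal), which left 933. Counts were tested with edgeR 4.0.16 in R 4.3.3 (TMM scaling, filterByExpr with minimum counts of 10 and 15 in total, robust quasi-likelihood fit). All 9 libraries entered 1 fit with 3 group means and no covariate, with Benjamini-Hochberg adjustment over 344 tested rows and a threshold of 0.05. DESeq2 1.42.0, limma 3.58.1 and other settings, 25 in all, were alternatives, 4 of them chosen after seeing the data (the replicate block in the 6 libraries, 2 libraries left out together, and the offset for G and C with its counterpart). Single values were compared by exact permutation. The code was tested on simulated counts. CPM values are scaled by TMM library sizes.

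Named miRNAs averaged 10 CPM or more in the 6 libraries and were called or, up to 8 in each direction, had the lowest p. To these were added their other arms, calls of DESeq2 or limma, the called members of each list or else its 2 most abundant, and the 10 most abundant rows. The comparison, the 22 lists and their 267 members (229 in the table, 139 tested) were chosen with earlier results of these data known. Intervals cover the spread between libraries, and no molecular identifiers are described, so PCR duplicates are counted as reads.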

Additional observations from a re-analysis of the deposited data

How the results depend on the processing

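Over 61 named miRNAs and 25 alternatives, 1477 values were computed. Of these, 1375 kept both direction and side of the threshold, 20 newly passed, 5 (all of miR-451a) no longer passed, and 77 (in 24 miRNAs that were not called) changed sign. The cause was not tested. The 5 losses for miR-451a were -1.44 with only the 6 libraries (edgeR adjusted p = 0.0790), -1.03 without APAP replicate 1 (0.0682), -1.35 without dmPGE2+APAP replicate 2 (0.0552), -1.01 with both of these left out (0.446) and -1.39 with the replicate block in the 6 libraries (0.227). Lower calls, 1 as reported, were 4 in DESeq2 and 4 without the filter on low counts, and 0 with only the 6 libraries, with the block in them or with both libraries left out. Each set of 4 counts both miR-486a rows. Higher calls, 0 as reported, were 3 in DESeq2, 3 without the filter and 1 with the replicate block. Leaving out single libraries gave 0 to 3 lower and 0 to 4 higher calls: 0 lower without APAP replicate 1 or dmPGE2+APAP replicate 2, 3 lower without APAP replicate 2 and 4 higher without dmPGE2+APAP replicate 1. The 3 lower without APAP replicate 2 also count both miR-486a rows. With all deposited rows, the share of miR-122-5p was 19.0% in APAP and 20.2% in dmPGE2+APAP. Deviations of same-numbered libraries correlated at 0.16, -0.10 and 0.13, and not every library correlated best with its own number. With so few libraries in a group, these values cannot exclude a pairing by number or a shared batch. With the replicate block miR-451a was at -1.39 (edgeR adjusted p = 0.00765) and miR-6538 passed (edgeR adjusted p = 0.0347).

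Log2 differences that changed sign were as follows. With both libraries left out, miR-127-5p was at 0.19, miR-342-3p at 0.32, miR-148a-3p at 0.031, miR-126a-5p at 0.063, miR-143-3p at -0.076, miR-199a-3p at -0.074, miR-200a-3p at -0.12, miR-133a-3p at -0.15, miR-9-5p at -0.32, miR-132-3p at 0.19, miR-93-5p at 0.032, miR-29a-3p at 0.13, miR-378a-3p at -0.0023, miR-34a-5p at 0.20, miR-26a-5p at 0.043 and miR-22-3p at 0.027. With the offset for G and C, miR-142a-5p was at 0.013, miR-148a-3p at 0.018, let-7f-5p at 0.066, miR-29a-3p at 0.079, miR-26a-5p at 0.035 and miR-101b-3p at 0.046. With wider joining of rows, miR-342-3p was at 0.030, miR-126a-5p at 0.035 and miR-29a-3p at 0.017. With the replicate block, miR-342-3p was at 0.0029 and miR-126a-5p at 0.0027, and with the block in the 6 libraries miR-342-3p was at 0.011. After thinning, miR-133a-3p was at -0.29 and miR-34a-5p at 0.59. In limma-voom miR-132-3p was at 0.065, and in limma on log2(TPM + 1) miR-342-3p was at 0.075. With single libraries left out, the ranges were -0.13 to 0.11 for miR-101b-3p, -0.011 to 0.20 for miR-122-5p, -0.067 to 0.069 for miR-126a-5p, -0.65 to 0.12 for miR-132-3p, -0.18 to 0.39 for miR-133a-3p, -0.45 to 0.033 for miR-142a-5p, -0.17 to 0.081 for miR-148a-3p, -0.051 to 0.38 for miR-199a-3p, -0.013 to 0.32 for miR-200a-3p, -0.097 to 0.016 for miR-22-3p, -0.19 to 0.035 for miR-26a-5p, -0.091 to 0.12 for miR-29a-3p, -0.36 to 0.088 for miR-30a-5p, -0.36 to 0.14 for miR-30d-5p, -0.18 to 0.47 for miR-342-3p, -0.20 to 0.13 for miR-34a-5p, -0.22 to 0.14 for miR-34c-5p, -0.013 to 0.61 for miR-379-5p and -0.081 to 1.08 for miR-9-5p.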

Other observations

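The 2 arms of a hairpin are cut from 1 precursor, so both were compared where both were tested. Over the 93 hairpins with both arms tested, the arms lay on the same side of 0 in 47. Over the 48 with both arms at 10 CPM or more, they did so in 26, with a median absolute gap of 0.17 on the log2 scale. Pearson's r across these 48 hairpins was 0.60 and Spearman's rho 0.33, and hairpins in the same libraries are not independent. The 48 include miR-486a, whose arms counted nearly the same reads (-1.17 and -1.15). Its arms therefore lie together by construction, and the coefficients are not given without it.

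Of 12 seeds with at least 3 tested miRNAs, the lowest median was that of AAAGUGC, the miR-17 seed, at -0.37 with all 4 members below 0. The highest was that of CCCUGAG, the seed of miR-125a-5p, miR-125b-5p and miR-351-5p, at 0.28 with all 3 above 0. The seed ACCCGUA of miR-99a-5p, miR-99b-5p and miR-100-5p had 3 of 3 above 0 with a median of 0.16, and the let-7 seed GAGGUAG had 7 of 9 below 0 with a median of -0.21.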
